A study of Mus musculus with 12 samples.

Results

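Vegfa, Vegfb, Fndc5, Metrnl, Il15, Angpt1 and Angptl4 encode proteins that skeletal muscle can release and that act on blood vessels, metabolism or immune cells. They were found by gene name in the deposited count and FPKM tables, where all 7 were present among 56162 features. Expression was measured by RNA sequencing in 12 libraries of muscle fibres from male C57BL/6J mice, whose age the labels give as 8 weeks, without saying whether before or after training. The 4 groups of 3 libraries were type I trained, type I untrained, type IIb trained and type IIb untrained fibres. Training was treadmill running over 6 weeks, with 60 min at 12 to 16 m/min on 5 days of each week, and trained mice were killed 3 days after it ended. The labels give no more about the untrained mice than that word. Type I fibres came from soleus, digested for 90 min, and type IIb fibres from extensor digitorum longus, digested for 60 min, both in 2 mg/ml collagenase. Fibre type, muscle and digestion time therefore cannot be told apart. One portion of each fibre was typed by its myosin and the remainder was sequenced after SMART-Seq HT amplification. The labels do not say how many fibres or mice a library holds, so the spread behind each p-value is that of these libraries and may be technical.

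Working muscle attracts and keeps capillaries largely through vascular endothelial growth factor A (VEGF-A), the product of Vegfa, which binds the receptors KDR and FLT1 on endothelial cells. VEGF-B binds FLT1 but not KDR and is abundant in oxidative tissues. Angiopoietin 1, the product of Angpt1, steadies vessels through the receptor TEK, and ANGPTL4 inhibits lipoprotein lipase, which frees fatty acids from circulating lipoproteins. Fndc5 encodes the membrane protein from which irisin is cleaved, Metrnl encodes meteorin-like, and Il15 encodes interleukin 15, a cytokine displayed to lymphocytes by its receptor chain IL15RA. These secreted products are called myokines when they come from muscle.

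Library totals ranged from 8026397 to 24995288 counts, and the number of genes with at least 10 counts ranged from 3636 to 14428. Myh7, the slow myosin of type I fibres, had 164.8 to 1319 CPM in type I libraries and a total of 1 count over the type IIb libraries. Myh4, the myosin of type IIb fibres, had 27102 to 102683 CPM in type IIb libraries, and at most 1.62 CPM in type I libraries. Type I untrained replicate 1 also held the fibre type markers Myh2 (68.7) and Myh1 (58.2), beside Myh7 at 525 (CPM of the library total). Elsewhere in type I libraries Myh2 was at most 9.12 and Myh1 at most 12.1 on that scale. In type IIb libraries Myh1 reached 88.0, in untrained replicate 1. Summed endothelial markers (15 genes, CPM of the library total) lay between 1.96 and 228 in type I trained, 73.1 and 2092 in type I untrained, and 0.316 and 384 in type IIb trained libraries. All 15 endothelial markers were at 0 in type IIb untrained libraries. Of 8 fibroblast markers, the summed level was highest in type I untrained replicate 3, at 9328 CPM. Adipocyte markers (6 genes) summed to at most 2.27 CPM in any library. Fewer cells of a type and less RNA per cell cannot be told apart in such libraries.

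Promoter windows of 4 of the 7 genes were found in the RefSeq table for GRCm38.p6 (the assembly also called mm10), each from 250 bases before to 50 bases after a transcription start. They are shown for the genes that separated the fibre types without overlap, Fndc5 and Metrnl, and for the pair whose levels overlapped, Vegfa and Vegfb. Capitals mark ACGTG or GCGTG on either strand, letters that form the core of hypoxia response elements. The windows were Fndc5 at chr4:129136749-129137048 (plus strand), Metrnl at chr11:121702177-121702476 (plus strand), Vegfa at chr17:46032328-46032627 (first Vegfa window, minus strand), a second Vegfa start at chr17:46025114-46025413 (second window, minus strand) and Vegfb at chr19:6987602-6987901 (minus strand). Il15, Angpt1 and Angptl4 had no entry.
Fndc5: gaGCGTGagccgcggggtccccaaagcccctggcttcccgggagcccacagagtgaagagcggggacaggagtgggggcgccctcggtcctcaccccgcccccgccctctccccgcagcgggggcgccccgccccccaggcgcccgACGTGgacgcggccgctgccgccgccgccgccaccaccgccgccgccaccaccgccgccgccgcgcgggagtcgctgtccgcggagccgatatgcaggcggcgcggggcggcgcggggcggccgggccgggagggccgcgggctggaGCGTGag
Metrnl: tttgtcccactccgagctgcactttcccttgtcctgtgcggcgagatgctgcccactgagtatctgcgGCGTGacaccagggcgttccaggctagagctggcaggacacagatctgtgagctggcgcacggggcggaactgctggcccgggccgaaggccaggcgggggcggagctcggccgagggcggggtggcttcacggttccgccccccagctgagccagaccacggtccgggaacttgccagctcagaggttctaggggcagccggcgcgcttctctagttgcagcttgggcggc
Vegfa, first window: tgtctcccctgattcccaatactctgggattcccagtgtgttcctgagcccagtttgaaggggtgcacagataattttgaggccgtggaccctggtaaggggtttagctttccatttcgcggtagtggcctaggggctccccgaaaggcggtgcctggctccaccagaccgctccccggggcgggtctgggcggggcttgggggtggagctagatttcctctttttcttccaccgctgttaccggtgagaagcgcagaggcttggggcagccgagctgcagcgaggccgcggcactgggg
Vegfa, second window: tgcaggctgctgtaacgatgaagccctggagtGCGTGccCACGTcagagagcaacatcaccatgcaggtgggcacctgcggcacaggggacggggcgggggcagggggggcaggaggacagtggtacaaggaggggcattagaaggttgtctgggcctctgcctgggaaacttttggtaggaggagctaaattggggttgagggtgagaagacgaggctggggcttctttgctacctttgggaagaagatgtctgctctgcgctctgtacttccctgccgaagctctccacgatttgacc
Vegfb: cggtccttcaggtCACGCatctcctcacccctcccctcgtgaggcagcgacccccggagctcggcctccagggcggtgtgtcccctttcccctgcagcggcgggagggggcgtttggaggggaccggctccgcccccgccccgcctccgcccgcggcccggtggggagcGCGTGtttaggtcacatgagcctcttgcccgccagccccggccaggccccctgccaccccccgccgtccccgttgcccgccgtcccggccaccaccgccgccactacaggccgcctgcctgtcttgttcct

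ACGTG occurred once in the Fndc5 window, first base at -104 from the start, and once in the second Vegfa window, at -211. GCGTG occurred in the windows of Fndc5 (2 matches), Metrnl (1 match) and Vegfb (2 matches), and once in the second Vegfa window, at -218. The first Vegfa window held neither. The second Vegfa window lies inside the gene, which spans 46016993 to 46032369, downstream of the first start. Its matches at -218 and -211 therefore lie in the gene body and are not read as promoter motifs. Whether they fall in protein-coding sequence was not tested. The Metrnl window also lies inside its gene, which spans 121701544 to 121716306 on the plus strand. Among 32851 windows of the same length, 19.6% held ACGTG and 32.4% held GCGTG. Of 4 other motifs searched on both strands, CANNTG (the E-box, in 72.3% of all windows) matched once in Metrnl, once in Vegfb and 2 times in the second Vegfa window, and TGGAAA (the NFAT core, in 21.4%) matched once in the first Vegfa window. AAGGTCA (a motif of nuclear receptors, in 4.72% of all windows) and TATAAA (the TATA box, in 13.6%) matched in none of the 5 windows. No match to ACGTG or GCGTG shared a base with a match to another motif in these windows. The windows were rich in G and C, at 82.3% in Fndc5, 68.0% in Metrnl, 62.0% and 59.3% in the first and second Vegfa windows and 75.3% in Vegfb, against a median of 52.7% over all windows. These matches describe the letters and are not evidence of binding.

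With both training states averaged, Fndc5 was called higher in type I fibres than in type IIb fibres, and the other 6 genes were not called. Calls here are those of edgeR's quasi-likelihood test with a p under 0.05 after Benjamini-Hochberg adjustment over 11747 genes. Of these, 1.93% were called in this comparison, 130 higher and 97 lower. With library totals in place of trimmed mean (TMM) scaling the split was 158 higher and 56 lower. The median log2 fold change of the 7 genes was 3.61 (5 estimates above 0), and that of all genes tested was 0.60 (65.1% above 0). All 6 type I libraries lay above all 6 type IIb libraries for 2 of the 7 genes, Fndc5 and Metrnl, as they did for 2.5% of all genes. At an unadjusted p under 0.05 there were 4 of the 7, Fndc5, Metrnl, Angptl4 and Il15, and 16.9% of all genes.

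**Figure D1:**
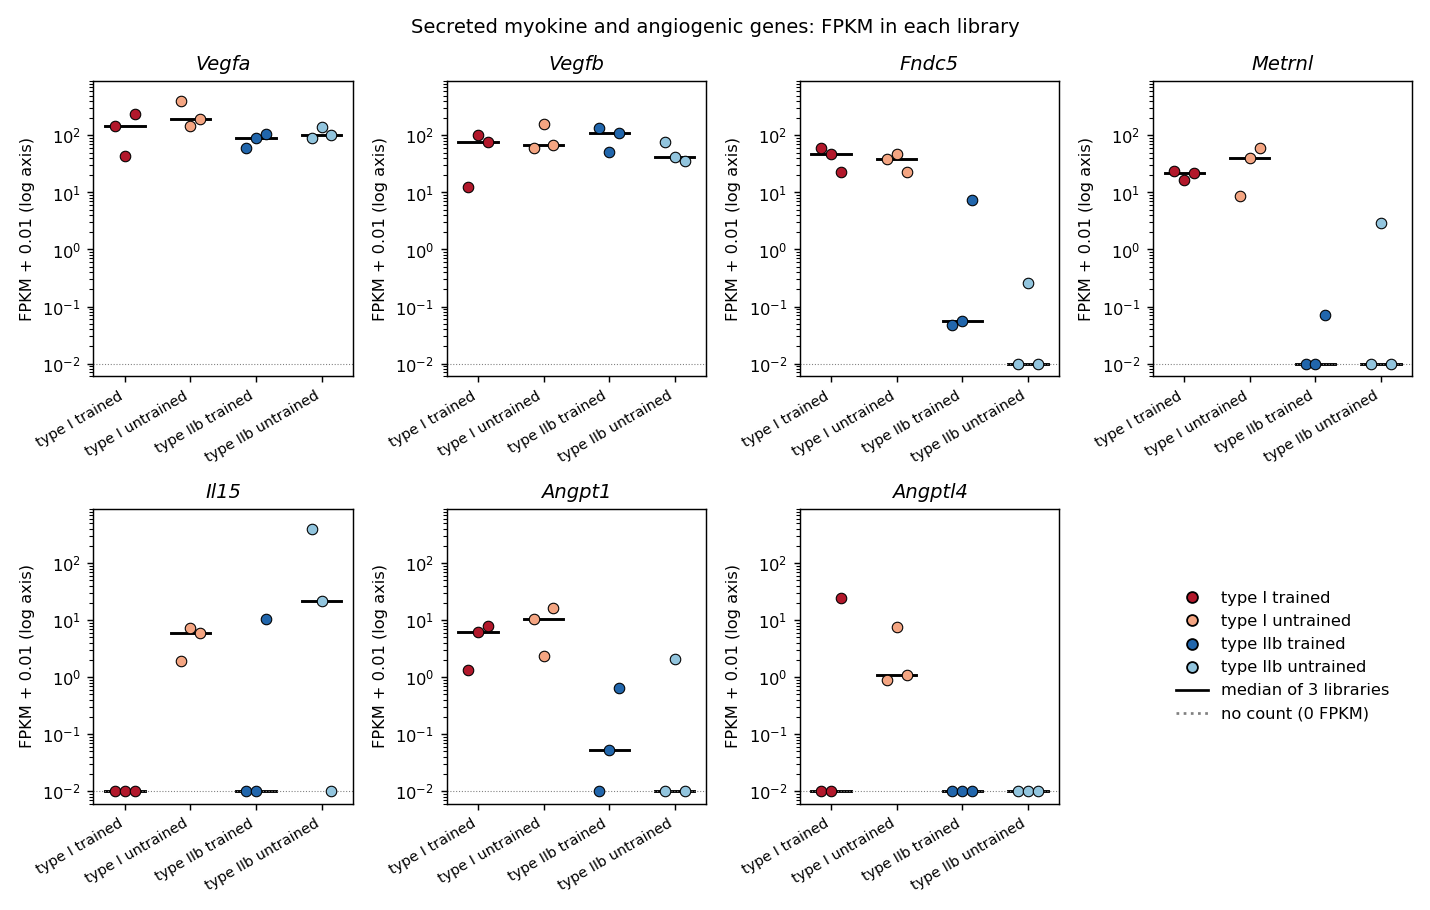
FPKM of each gene in each of the 12 libraries, on a log axis after adding 0.01, with 1 point per library and a bar at the median of 3. Vegfa and Vegfb lay between 12.7 and 395 FPKM in every library, whereas Fndc5 and Metrnl were high in type I libraries and near or at 0 in most type IIb libraries.

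Fndc5 (ENSMUSG00000001334, mm10 chromosome 4, 129136999 to 129144593, plus strand) was abundant in every type I library. It had 1609, 1341 and 872 counts in type I trained libraries, 1263, 1746 and 1549 in type I untrained, 1, 1 and 316 in type IIb trained, and 0, 10 and 0 in type IIb untrained libraries. Type IIb trained replicate 3 held 316 of the 328 type IIb counts. In CPM with TMM-scaled library sizes, the type I libraries lay between 38.8 and 200.1 and the type IIb libraries between 0 and 22.8. Type I fibres averaged 106.5 ± 65.7 CPM and type IIb fibres 3.99 ± 9.22 CPM (SD, n = 6 each), a 14.2-fold difference of pooled levels. Every fold given here and below, other than log2 fold changes, is of such pooled levels and can differ from the ratio of the averages. The log2 fold change averaged over training was 6.12 ± 1.48 SE (adjusted p = 0.0391, edgeR), larger than log2 of the pooled fold because each group counts equally on the log scale and single type IIb libraries are near 0. The call did not hold without any one of 9 libraries, all but type I trained replicate 3, type IIb trained replicate 3 and type IIb untrained replicate 2 (adjusted p 0.0587 to 0.0845, edgeR). It held without each of those 3 (0.00577 to 0.0463, edgeR), and without the 3 libraries richest in endothelial markers (0.0135, edgeR).

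Within training states Fndc5 had the same direction and was not called. Untrained fibres averaged 80.7 ± 42.3 CPM in type I fibres, against 0.268 ± 0.465 CPM in type IIb (SD, n = 3 each), a 217-fold difference (log2 fold change 8.15 ± 2.30 SE, adjusted p = 0.197, edgeR). Trained fibres averaged 132.3 ± 83.7 CPM in type I fibres, against 7.71 ± 13.1 CPM in type IIb (8.35-fold, adjusted p = 0.614, edgeR; log2 fold change 4.09 ± 1.89 SE). The smaller fold in trained fibres rested on type IIb trained replicate 3, at 22.8 CPM, where the other trained type IIb libraries had 0.129 and 0.182 CPM. That library also had 10932 genes with at least 10 counts, summed endothelial markers of 384 CPM and fibroblast markers of 305 CPM, against at most 0.748 and 29.5 CPM in the other trained type IIb libraries, and 1 count of Myh7. The part of these in its Fndc5 level was not tested.

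Metrnl (ENSMUSG00000039208, chromosome 11, 121701544 to 121716306, plus strand) followed the same order by fibre type. It had 244, 178 and 319 counts in type I trained libraries, 107, 556 and 1613 in type I untrained, 0, 0 and 1 in type IIb trained, and 0, 44 and 0 in type IIb untrained libraries. Type I libraries lay between 6.42 and 42.8 CPM and type IIb libraries between 0 and 3.54 CPM, with no overlap. Type I fibres averaged 25.8 ± 14.4 CPM and type IIb fibres 0.602 ± 1.44 CPM (SD, n = 6 each), a 37.2-fold difference that was not called (log2 fold change 6.89 ± 1.97 SE, adjusted p = 0.0799, edgeR). Without type IIb untrained replicate 2, which held 44 of the 45 type IIb counts, Metrnl passed the threshold (adjusted p = 0.0383, edgeR). DESeq2 and limma-voom called it with all libraries (adjusted p 2.98e-05 and 0.00338), and so did limma on log2(FPKM + 1) (0.00266) and on log2(FPKM + 0.1) (0.00369). The other 8 settings tried with edgeR did not (0.0667 to 0.441).

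In untrained fibres Metrnl averaged 29.7 ± 20.2 CPM in type I fibres, against 1.18 ± 2.05 CPM in type IIb (SD, n = 3 each; 24.6-fold, adjusted p = 0.376, edgeR). In trained fibres it averaged 21.8 ± 8.11 CPM in type I and had 1 count in type IIb, a ratio of 515 with a 95% counting interval of 92.1 to 20359.8 (adjusted p = 0.462, edgeR). None of the 7 genes was called in either comparison, and 0.46% of all genes were called in untrained and 0.536% in trained fibres. The calls in untrained fibres were 30 higher and 24 lower, and 35 and 14 with library totals. In untrained fibres 3 of the 7 genes (Fndc5, Metrnl and Angptl4) had every type I library above every type IIb library, against 22.8% of all genes. In trained fibres 3 of 7 (Fndc5, Metrnl and Angpt1) did so, against 6.72% of all genes. At an unadjusted p under 0.05 there were 2 of the 7 in untrained fibres (17.5% of all genes) and 4 in trained fibres (8.03%).

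Vegfa (ENSMUSG00000023951, chromosome 17, 46016993 to 46032369, minus strand) was detected in every library at levels that overlapped between all 4 groups. It had 228.5, 67.4 and 189.7 CPM in type I trained libraries, 354, 176 and 163 CPM in type I untrained, 92.9, 166 and 151 CPM in type IIb trained, and 121, 211 and 144 CPM in type IIb untrained libraries. The order of the group means was type I untrained (231 ± 107 CPM), type I trained (162 ± 84.1), type IIb untrained (159 ± 46.8) and type IIb trained (137 ± 38.6; SD, n = 3 each), and no neighbours in that order differed beyond their SDs. Type I fibres averaged 196.5 ± 94.0 CPM and type IIb fibres 147.6 ± 40.3 CPM (SD, n = 6 each; log2 fold change 0.39 ± 0.48 SE, adjusted p = 0.832, edgeR). The training log2 fold change was -0.51 ± 0.68 SE in type I and -0.22 ± 0.68 SE in type IIb fibres (adjusted p = 1 for each, edgeR).

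Vegfb (ENSMUSG00000024962, chromosome 19, 6982473 to 6987651, minus strand) was likewise present throughout. It had 14.8, 117 and 45.1 CPM in type I trained libraries, 41.0, 143 and 43.8 CPM in type I untrained, 163, 73.0 and 118 CPM in type IIb trained, and 76.7, 47.6 and 38.1 CPM in type IIb untrained libraries. Here the order of the means ran from type IIb trained (118 ± 44.8 CPM) to type I untrained (75.9 ± 58.0), type I trained (59.0 ± 52.6) and type IIb untrained (54.1 ± 20.1; SD, n = 3 each), again with no gap between neighbours beyond their SDs. In type IIb fibres the pooled level of the trained libraries was 2.31-fold that of the untrained ones (log2 fold change 1.12 ± 1.03 SE, adjusted p = 0.909, edgeR), with type IIb trained replicate 2 below the highest untrained library. Between fibre types the log2 fold change was -0.26 ± 0.72 SE (adjusted p = 0.961, edgeR). Its sign turned with library totals in place of TMM scaling (0.12), so no direction is given.

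The ratio of Vegfb to Vegfa within a library, which does not depend on scaling between libraries, was compared on the log2 FPKM scale with 0.1 added to each. It was -3.54, 1.20 and -1.67 in type I trained libraries and -2.71, 0.10 and -1.50 in type I untrained libraries. It was 1.20, -0.79 and 0.05 in type IIb trained libraries and -0.26, -1.75 and -1.52 in type IIb untrained libraries. Per length, Vegfa was the higher of the pair in 8 of 12 libraries with the authors' lengths, and in 6 of 12 with the GENCODE M21 exon unions. The trained minus untrained difference was 1.33 in type IIb fibres (means 0.16 ± 1.00 and -1.17 ± 0.80, SD, n = 3 each; p = 0.2, exact two-sided permutation test, smallest possible 0.1) and 0.03 in type I fibres (p = 1, same exact test). The type I minus type IIb difference was -0.84 (means -1.35 ± 1.75 and -0.51 ± 1.09, SD, n = 6 each; exact p = 0.346). Over the 6 comparisons made the adjusted p lay between 0.653 and 1.

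**Figure D2:**
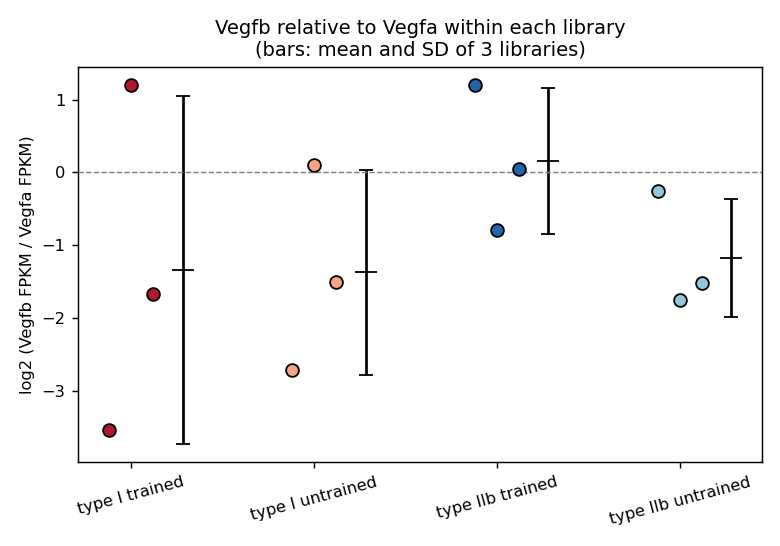
Log2 ratio of Vegfb to Vegfa FPKM in each library, with the mean and SD of 3 libraries beside each group. The groups overlap, and type I trained libraries spread most widely, from -3.54 to 1.20.

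Angpt1 (ENSMUSG00000022309, chromosome 15, 42424723 to 42676977, minus strand) was low and leaned to type I fibres. It had 37, 182 and 324 counts in type I trained libraries, 350, 88 and 1193 in type I untrained, 0, 1 and 28 in type IIb trained, and 0, 87 and 0 in type IIb untrained libraries. Type I fibres averaged 16.6 ± 10.2 CPM and type IIb fibres 1.53 ± 2.80 CPM (SD, n = 6 each), a 10.4-fold difference that was not called (log2 fold change 3.61 ± 1.85 SE, adjusted p = 0.345, edgeR). The highest type IIb library, untrained replicate 2, lay above the lowest type I libraries (4.60 and 6.32 CPM). In trained fibres alone the libraries did not overlap, 13.5 ± 8.46 CPM in type I fibres, against 0.734 ± 1.12 CPM in type IIb (SD, n = 3 each; 13.0-fold, adjusted p = 0.766, edgeR). Exon sequence shared with the antisense gene Gm17473 came to 14.2% of the Angpt1 exon length, and reads of the 2 genes cannot be told apart there without strand. Angpt1 and Metrnl were both highest in type I untrained replicate 3 (31.7 and 42.8 CPM), the library with the most fibroblast marker RNA (9328 CPM). In type I untrained replicate 2, with a fibroblast sum of 27.0 CPM, they had 6.32 and 39.9 CPM. The part of fibroblast RNA in their levels was not tested. Gm17473 itself was assigned 166 counts in all libraries.

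Angptl4 (ENSMUSG00000002289, chromosome 17, 33773750 to 33781830, minus strand) had no count in any type IIb library. In type I fibres it had 0, 0 and 528 counts in trained and 16, 159 and 42 counts in untrained libraries. With both training states together type I fibres were at least 138-fold higher, set against 3 counts over all 6 type IIb libraries, and the difference was not called (adjusted p = 0.0899, edgeR). Type I trained replicate 3 held 528 of the 745 counts, and without it the bound was 50.8-fold and the adjusted p 1.000. In untrained fibres alone every type I library lay above the type IIb libraries, at least 34.4-fold higher over the group (adjusted p = 0.237, edgeR). In trained fibres a single library carried all counts. Lpl, which encodes the lipoprotein lipase that ANGPTL4 inhibits, had 1587 to 10842 CPM in type I and 0.517 to 273 CPM in type IIb libraries, without overlap and not called (23.0-fold, adjusted p = 0.0947, edgeR). Cd36, a fatty acid carrier of the membrane, averaged 840 ± 697 CPM in type I fibres, against 25.9 ± 54.7 CPM in type IIb fibres (SD, n = 6 each; 19.3-fold, adjusted p = 0.154, edgeR).

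Il15 (ENSMUSG00000031712, chromosome 8, 82331632 to 82403222, minus strand) was the most uneven of the 7 genes. It had no count in the 3 type I trained libraries, where 3 counts, the limit a count of 0 allows, were worth 0.134 to 0.373 CPM. Type I untrained libraries had 17, 72 and 110 counts, type IIb trained libraries 0, 0 and 121, and type IIb untrained libraries 2929, 238 and 0. One library, type IIb untrained replicate 1, held 2929 of the 3487 counts. With counts pooled over the 3 libraries of each group, trained type I fibres were at least 37.9-fold lower than untrained ones, with no overlap. That bound covers counting error and not the spread between libraries, and the difference was not called (adjusted p = 1, edgeR). Non-overlap in this direction was found in 8.93% of all genes. DESeq2 called it (adjusted p = 5.35e-13) and limma-voom did not (0.333). Levels in the untrained type I libraries were low, 1.02 to 5.17 CPM.

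Between fibre types Il15 averaged 1.52 ± 2.12 CPM in type I fibres, against 57.6 ± 128 CPM in type IIb fibres (SD, n = 6 each), 29.7-fold lower in type I and not called (log2 fold change -6.78 ± 2.18 SE, adjusted p = 0.103, edgeR). DESeq2 and the fit with no filter called it (adjusted p 1.57e-11 and 0.0183), and the other 10 settings tried, besides leaving out 1 library, did not. The log2 fold change was -5.02 without type IIb untrained replicate 1 and -2.73 without type IIb trained replicate 3. Type IIb untrained replicate 1 had 317.6 CPM of Il15 and the fewest genes with at least 10 counts, 3636. Il15ra, the receptor chain, was also highest there, at 158 CPM against at most 36.2 CPM in any other library, and is named after its values were seen. Angptl2, a secreted relative of the angiopoietins, had 136.3 CPM there and at most 15.6 CPM elsewhere. Il15 was not called between fibre types with or without the number of detected genes as a covariate, so the call cannot show whether that number matters. Its r with log10 of that number over the libraries was -0.166. Whether that number bears on the levels in type IIb untrained replicate 1 was not tested.

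**Figure D3:**
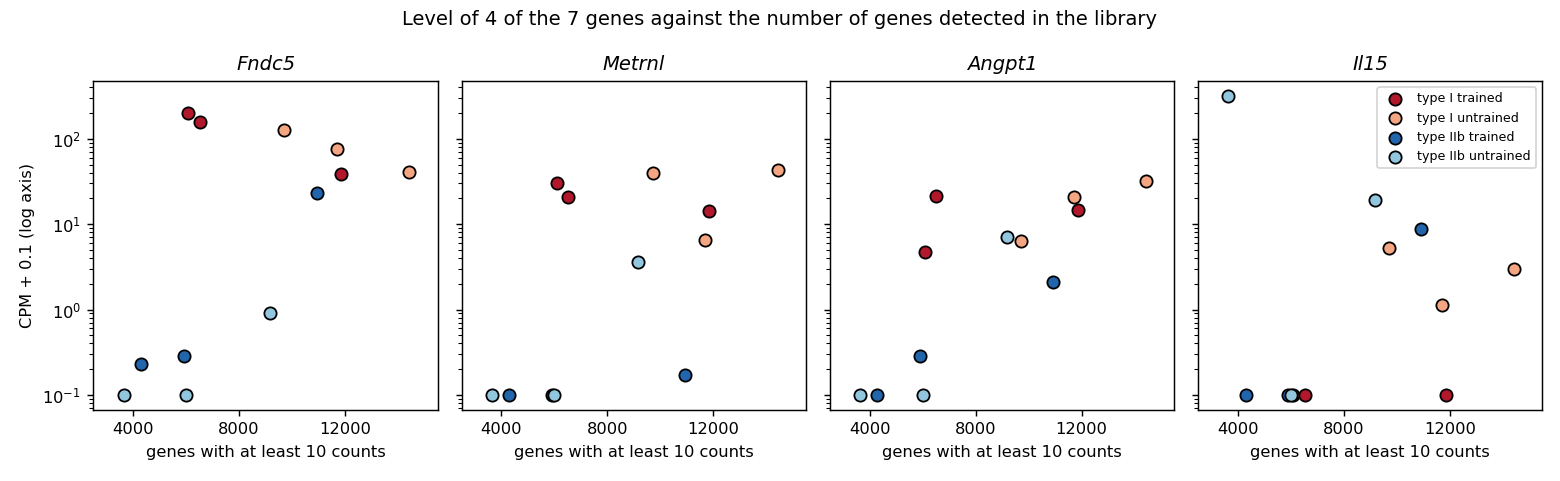
CPM (0.1 added, log axis) of Fndc5, Metrnl, Angpt1 and Il15 in each library against the number of genes with at least 10 counts. At 6082 and 6517 detected genes, type I trained libraries had 200.1 and 158.0 CPM of Fndc5, while type IIb libraries with 5910 and 6002 genes had 0.182 and 0 CPM. Type IIb trained replicate 3, with 10932 genes, had 22.8 CPM. Over the 12 libraries r of Fndc5 with log10 of detected genes was 0.559, and the part of that number in the levels was not tested.

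Training alone called none of the 7 genes in edgeR's test. In type I fibres 0 of all 11747 genes were called (0%; 345 at an unadjusted p under 0.05; DESeq2 called 1 higher and 58 lower, limma-voom 2 and 7), and 1 of the 7 genes, Il15, was among the 2.94% of all genes with an unadjusted p under 0.05. The median log2 fold change was -0.44 for the 7 genes and -0.28 for all genes. Fndc5 averaged 132.3 ± 83.7 CPM in trained and 80.7 ± 42.3 CPM in untrained type I fibres (log2 fold change 0.71 ± 1.68 SE), and Metrnl 21.8 ± 8.11 and 29.7 ± 20.2 CPM (log2 fold change -0.44 ± 2.14 SE; SD, n = 3 each). Both differences were smaller than the larger SD, with adjusted p = 1 in edgeR.

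In type IIb fibres training also called 0 of the 7 genes and 0% of all genes (965 at an unadjusted p under 0.05, edgeR, which is 8.21%, with Fndc5 among them). DESeq2 called 307 genes higher and 57 lower, and limma-voom 1 and 1. The median log2 fold change was -0.22 for the 7 genes and 0.36 for all genes. Fndc5 had 318 counts in trained and 10 in untrained libraries, a 38.1-fold pooled difference (adjusted p = 0.597, edgeR), of which 316 lay in 1 library. Without that library its log2 fold change was -0.74. Metrnl had 1 count in trained and 44 in untrained libraries, and Il15 had 121 in trained and 3167 in untrained libraries, 2929 of them in 1 library. Angpt1 had 29 counts in trained and 87 in untrained libraries, and Angptl4 none in either.

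Whether training acted differently in the 2 fibre types was tested by the interaction term, which called 0 of the 7 genes and 0% of all genes (lowest adjusted p of the 7 = 0.741, edgeR; 1050 genes, or 8.94%, at an unadjusted p under 0.05 and 0 of the 7, 28 higher and 366 lower by DESeq2, and 0 and 3 by limma-voom). Fndc5 had an interaction of -4.06 ± 2.47 SE on the log2 scale and Metrnl 4.50 ± 3.20 SE. The training effect averaged over both fibre types also called 0 of 7 and 0% of all genes (449, or 3.82%, at an unadjusted p under 0.05, Fndc5 and Il15 among them, 166 higher and 61 lower by DESeq2, and 0 and 3 by limma-voom). Il15 had the lowest p of the 7 there (adjusted p = 1, edgeR), with 121 counts in trained and 3366 in untrained libraries, and DESeq2 called Il15 in both comparisons. These comparisons share libraries with those above.

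FPKM, which is scaled to gene length, allows levels to be compared between the 7 genes. In type I trained fibres the order of mean FPKM was Vegfa (144 ± 98.0), Vegfb (63.2 ± 45.7), Fndc5 (43.6 ± 19.1), Metrnl (20.8 ± 3.71), Angptl4 (8.05 ± 13.9) and Angpt1 (5.19 ± 3.48), with Il15 listed at 0. In type I untrained fibres it was Vegfa (245 ± 132), Vegfb (95.2 ± 53.5), Metrnl (36.8 ± 26.5), Fndc5 (36.5 ± 13.0), Angpt1 (9.70 ± 7.11), Il15 (5.04 ± 2.79) and Angptl4 (3.22 ± 3.89; SD, n = 3 each). In type IIb fibres Vegfb (99.9 ± 43.8 trained, 51.1 ± 21.3 untrained) and Vegfa (85.3 ± 24.1 trained, 112 ± 27.7 untrained) were the 2 genes detected in every library. In type I trained fibres the gap between neighbours exceeded both SDs for Fndc5 and Metrnl alone. In type I untrained fibres it did so between Vegfa and Vegfb, between Vegfb and Metrnl, and between Fndc5 and Angpt1. The lengths in the authors' table were shorter than the GENCODE M21 exon unions for 6 of the 7 genes (1273 against 4285 bases for Vegfa, and equal at 2763 for Fndc5). With exon unions Vegfa came to 42.9 FPKM in type I trained fibres, level with Fndc5 at 43.6, and in type IIb trained fibres Vegfb came to 60.1 and Vegfa to 25.3 FPKM, so the order between genes depends on the length used.

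**Figure D4:**
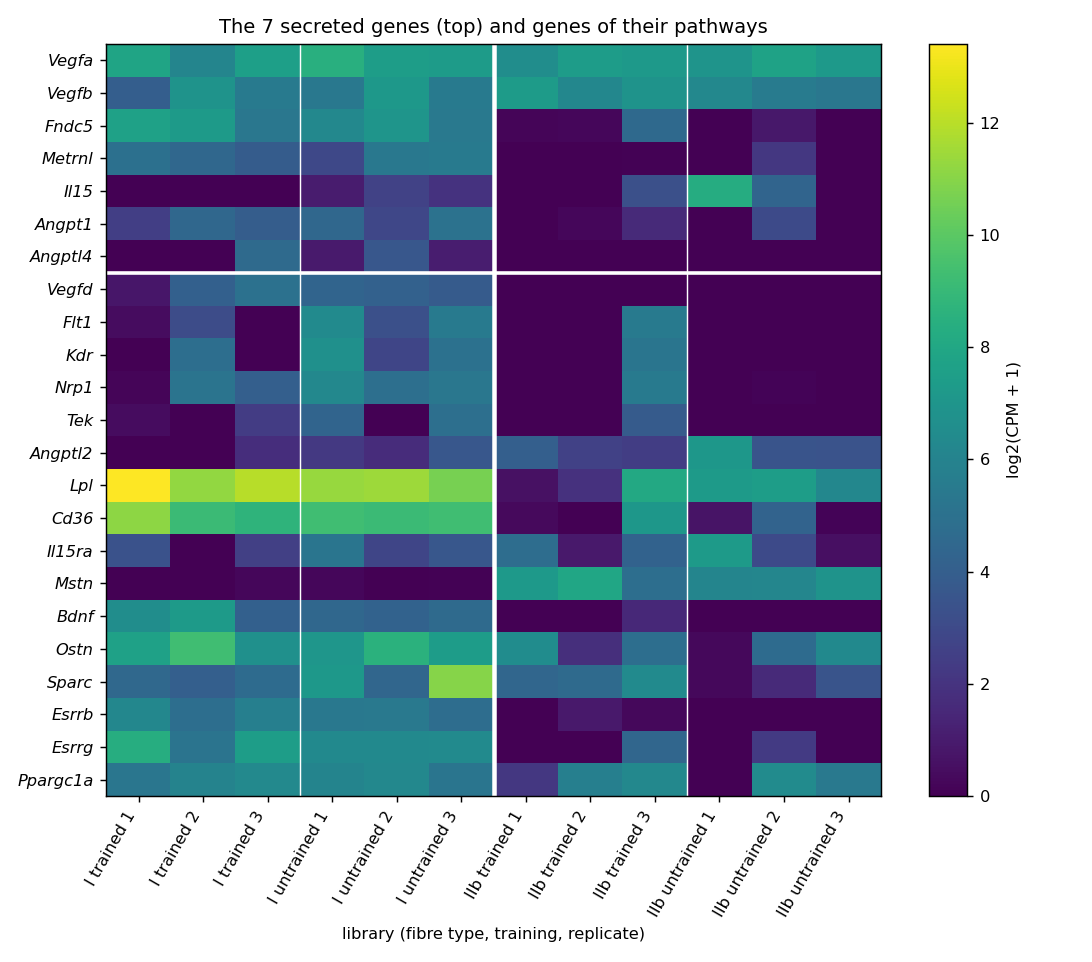
Log2(CPM + 1) of the 7 genes (above the white line) and of receptors, partners and other myokines (below it) in each library, type I left and type IIb right of the thick line. Fndc5, Metrnl, Vegfd, Lpl, Cd36 and Bdnf are brighter in type I libraries and Mstn in type IIb libraries, while Flt1, Kdr and Nrp1 are bright in type IIb trained replicate 3 alone among type IIb libraries.

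The VEGF receptors were highest in libraries that also held endothelial markers. Of 8 tested genes of the VEGF family and receptors, 1 was called, Vegfd, a further VEGF ligand, which had 1919 counts in type I libraries and none in type IIb libraries (at least 355-fold higher, adjusted p = 0.0299, edgeR). Its call did not hold without any one of 10 libraries, all but type I trained replicates 1 and 2 (adjusted p 0.059 to 0.0952), nor without the 3 libraries richest in endothelial markers (0.378) or with detected genes as a covariate (0.0760). The list's median log2 fold change was 5.60, against 0.60 for all genes. Of its 8 tested genes 6 had an unadjusted p under 0.05, against 16.9% of all genes. Kdr, Flt1 and Nrp1, receptors of VEGF-A, had 0 to 104 CPM, 0 to 83.5 CPM and 0.124 to 74.5 CPM in type I libraries, and in type IIb libraries 35.4, 45.8 and 45.4 CPM in trained replicate 3 with at most 1 count elsewhere (adjusted p 0.209, 0.255 and 0.158, edgeR). Kdr and Flt1 belong to the endothelial list, whose summed level was 384 CPM in that library and at most 0.748 CPM in the other type IIb libraries. The part of endothelial RNA in these levels was not tested. Of 6 tested angiopoietin, angiopoietin-like and Tie receptor genes 0 were called (median 3.06, and 1 at an unadjusted p under 0.05). Tek, the receptor of angiopoietin 1, averaged 8.70 ± 12.1 CPM in type I fibres, against 2.24 ± 5.48 CPM in type IIb fibres (SD, n = 6 each; adjusted p = 0.317, edgeR). Angptl1 averaged 0.553 ± 1.24 CPM in type I fibres, against 13.8 ± 32.7 CPM in type IIb fibres (adjusted p = 1.000, edgeR).

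Among 15 tested other myokines, 2 were called between fibre types with training averaged. Mstn, which encodes the growth inhibitor myostatin, had 9 counts in type I and 5646 in type IIb libraries (1129.5-fold lower in type I, adjusted p = 0.000203, edgeR), and Bdnf, a neurotrophin, 3956 and 26 counts (84.5-fold higher, adjusted p = 0.0188, edgeR). The call of Mstn held without any one library. Mstn was also called in untrained fibres (adjusted p = 0.0194, 0.0656 to 0.161 without any one of 5 libraries, and 0.584 without the 3 richest in endothelial markers) and in trained fibres (0.0125, and 0.0608 to 0.112 without any one of 3). Library totals ended both calls (0.0859 in untrained and 0.0586 in trained fibres), and in untrained fibres so did detected genes as a covariate (0.0852) and a fit restricted to both untrained groups (0.0572). The call of Bdnf did not hold without type I trained replicate 2, type IIb trained replicate 2 or type IIb untrained replicate 3 (adjusted p 0.0505 to 0.0578), nor without the 3 libraries richest in endothelial markers (0.0538). Sparc, a matricellular glycoprotein, was called in untrained fibres (730.9 CPM in type I fibres, against 4.16 CPM in type IIb, adjusted p = 0.0373, edgeR), and not without type I untrained replicate 3 (0.405) nor without any one of 7 further libraries, and it was lost under 8 of 13 other settings. Type I untrained replicate 3 had 2032 CPM of Sparc and the highest fibroblast sum. Ctsb, Ostn and Dcn, the 3 most abundant uncalled genes of the list (Dcn is also a fibroblast marker), were not called (adjusted p 0.846, 0.109 and 0.18). The list's median log2 fold change was 2.82, and 9 of its 15 tested genes had an unadjusted p under 0.05, against 16.9% of all genes.

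Of 6 tested irisin and meteorin relatives, Fndc5 alone was called (median 2.24), and 3 had an unadjusted p under 0.05, against 16.9% of all genes. The irisin receptor subunits Itgav and Itgb5 and the relative Fndc3b were not called (adjusted p 0.159, 0.911 and 0.523, edgeR). Of 7 tested genes of interleukin 15 signalling 0 were called (median -1.08, 1 at an unadjusted p under 0.05), with Jak1, Stat5b and Stat3 at adjusted p 0.39, 0.363 and 0.964. Of 6 tested lipoprotein lipase pathway genes 0 were called (median 4.68, 3 at an unadjusted p under 0.05), Vldlr having adjusted p = 0.749. Of 14 tested hypoxia pathway genes 0 were called (median 0.97, 2 at an unadjusted p under 0.05), among them Egln1, Bnip3 and Pdk1 (adjusted p 0.328, 0.106 and 0.241). Of 13 tested PPAR and PGC-1 regulators and targets 1 was called, Esrrb, an orphan nuclear receptor of oxidative metabolism, with 4262 counts in type I and 8 in type IIb libraries (295.9-fold higher, adjusted p = 0.0116, edgeR). That call held without any one library, and was lost without the 3 libraries richest in endothelial markers (0.287). Esrrg, Pdk4 and Ppargc1a had adjusted p 0.0842, 0.103 and 0.95 in edgeR (list median 1.19, 4 at an unadjusted p under 0.05). DESeq2 and limma-voom called more genes than edgeR over the whole table, as given with the other settings.

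Markers of other cells were compared in the same way. None of 14 tested endothelial, 8 mural, 8 fibroblast, 2 macrophage and leucocyte or 4 satellite cell markers was called, with list medians of 4.26, 3.83, 4.27, 0.51 and 1.57 on the log2 scale. In the same order 6, 4, 4, 0 and 1 genes had an unadjusted p under 0.05, against 16.9% of all genes. Of 4 tested erythroid markers 1 was called, Hba-a1 (104.1 CPM in type I fibres, against 4.91 CPM in type IIb, adjusted p = 0.0463, edgeR; 0.192 without type I untrained replicate 1, and not called without any one of 7 further libraries or under 7 of 11 other settings). No adipocyte marker passed the filter. Of 4 fibre type markers Myh7 was called higher and Myh4 lower in type I. In the comparisons of training and in the interaction, 0 genes of any of the 16 lists were called. Of the 14 tested endothelial markers, 11 had an unadjusted p under 0.05 for training in type IIb fibres (median log2 fold change 9.13), 4 for training in type I fibres (median -5.15) and 13 in the interaction (median -14.44). Of the 8 fibroblast markers these counts were 4, 2 and 7 (medians 7.25, -4.94 and -12.37). The shares of all genes at that p were 8.21%, 2.94% and 8.94%. In type IIb trained fibres replicate 3 held most of this marker RNA, and the part of it in the training differences of the 7 genes was not tested.

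Genes whose levels ran most like each of the 7 over the 12 libraries were ranked by Pearson r of log2(CPM + 1), as a description of libraries that share fibre type and depth. Fndc5 ran closest with B3galt2 (r = 0.987), Mapk3 (0.975) and Ablim1 (0.974), and among the 3 genes closest to Metrnl were D16Ertd472e (0.958) and Nln (0.957). Vegfa ran closest with Gadd45gip1 (0.850), Rnf6 (0.846) and Gpatch2 (0.846), and Vegfb with Rpsa (0.868), Msrb1 (0.847) and Ppif (0.843). Il15 ran closest with Sugct (0.951), Dynlt1a (0.933) and Tma16 (0.932), where type IIb untrained replicate 1 stood far above the rest. Angpt1 ran closest with Clic4 (0.968), Slc37a3 (0.958) and Slc12a4 (0.952), and Angptl4 with Gm43513 (0.975), Tk2 (0.963) and Abcc8 (0.947). With log10 of the number of detected genes, r was 0.770 for Angpt1, 0.559 for Fndc5, 0.547 for Metrnl, 0.525 for Vegfa, 0.517 for Angptl4, -0.166 for Il15 and -0.175 for Vegfb.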

How the data were processed

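The 12 libraries, in 4 groups of 3 by their titles, have deposited counts of reads per gene, as whole numbers without normalisation, and deposited FPKM tables, which the authors scaled to gene length and library total. FPKM of the 7 genes equalled count, length and total to within 0.0785%. Per the submitters' processing notes, TopHat2 and the mouse build mm10 were used. The counting program, annotation release and use of strand were not given in the sources used here, and the library kits do not mark strand. No per-sample column was left unused (0), and 761 of 56162 features carry no Ensembl identifier. Depth was 8026397 to 24995288 counts, so that 1 count was worth 0.0400 to 0.125 CPM.

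In R 4.3.3, counts entered the robust quasi-likelihood test of edgeR 4.0.16 (TMM scaling, minimum count 10, minimum total 15, 11747 genes, all 7 of the reported ones among them), in 1 fit of all 12 libraries with a mean per group. Calls used a Benjamini-Hochberg adjusted p under 0.05 over all genes tested. The SE was taken from the log2 fold change and the F statistic (absolute change over the root of F). CPM of a gene uses TMM-scaled library sizes, and summed markers are CPM of library totals. Folds are ratios of pooled counts over pooled TMM-scaled sizes, and against a group without a count they are lower bounds from 3 counts over that group. Intervals (95%), lower bounds of folds and floors cover counting error only, since amplified reads carry no molecular identifiers. They leave out the spread between libraries. DESeq2 1.42.0, limma 3.58.1 (voom, and log2 of FPKM with 1 or 0.1 added), no filter, other scaling, a covariate and omitted libraries were alternatives. The edgeR step was tested on simulated data. The ratio was tested by exact permutation in scipy 1.17.1.

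The 7 genes and the 16 gene lists were chosen with earlier results of these data known. From the lists the text names the called genes and the 3 further pathway genes with the highest mean CPM. One gene that the rule on like patterns names is not reported here.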

Additional observations from a re-analysis of the deposited data

How the results depend on the processing

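Counts of the 7 genes called moved as follows. Between fibre types with training averaged (1 called), no filter, limma on log2(FPKM + 1) and on log2(FPKM + 0.1) gave 2 each, DESeq2 and limma-voom 3 each, no robust prior 0, and leaving out 1 library 0 to 2. Over all genes no filter called 219 higher and 91 lower of 28696. Of 11747 genes, log2(FPKM + 1) called 512 and 88, and log2(FPKM + 0.1) 486 and 81. DESeq2 called 898 and 180 of 11747, limma-voom 862 and 210, and no robust prior 99 and 71. In untrained fibres (0 called) no filter, DESeq2 and log2(FPKM + 0.1) gave 1 each, log2(FPKM + 1) 2 and limma-voom 3. DESeq2 gave 2 in trained fibres, and 1 in training of type I fibres, in the interaction and in training averaged over fibre types. Fndc5 between fibre types missed the threshold with no robust prior (adjusted p = 0.0570) and held under the other tools, scalings, filter and covariate (4.71e-05 to 0.0461).

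The titles number the replicates, and the labels name no pairing. Deviations of same-numbered libraries of different groups had r from -0.1255 to 0.1772, over 0.1 in 4 of 18 pairs. Among these were replicates 3 of type I trained, type I untrained and type IIb trained fibres (0.108, 0.142 and 0.177). Differently numbered libraries had r from -0.1737 to 0.1894. The numbers were not taken as pairs in the main fit. With the replicate block 0 of the 7 genes were called between fibre types, and Fndc5 had adjusted p = 0.0953. The calls of Bdnf (0.0529), Vegfd (0.0724), Hba-a1 (0.129) and Mstn within untrained (0.0635) and trained fibres (0.0564) were lost too.

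Over all genes the counts between fibre types with training averaged, 130 higher and 97 lower in edgeR, were 898 and 180 by DESeq2, 862 and 210 by limma-voom, 512 and 88 with log2(FPKM + 1), 486 and 81 with log2(FPKM + 0.1), 57 and 32 without the 3 libraries richest in endothelial markers, 72 and 66 with the replicate block, and, leaving out 1 library, 66 and 53 (type I untrained replicate 3) to 84 and 62 (type I untrained replicate 2) where the total moved by over 1.5 times, as it also did without type I untrained replicate 1, type IIb trained replicate 2 and type IIb untrained replicate 3. In untrained fibres edgeR called 30 and 24, DESeq2 963 and 68, limma-voom 1661 and 237, log2(FPKM + 1) 305 and 37, log2(FPKM + 0.1) 282 and 30, no filter 93 and 30, the covariate 20 and 13, library totals 35 and 14, and the fit without the 3 libraries 18 and 7. Omitting any type I untrained library or type IIb untrained replicate 3 gave 14 and 8 to 19 and 14. In trained fibres edgeR called 28 and 35, DESeq2 208 and 138, limma-voom 103 and 41, log2(FPKM + 1) 73 and 33, log2(FPKM + 0.1) 75 and 30, only the groups compared 21 and 18, the replicate block 16 and 25, and the fits without type I trained replicate 1 and type IIb trained replicate 2 gave 17 and 19, and 13 and 16. For training and the interaction (0 called), no filter gave 0 and 7 in type I, 6 and 3 in type IIb, 4 and 22 in the interaction and 1 and 4 with fibre types averaged, and leaving out libraries gave at most 2. Over all genes the median log2 fold change between fibre types was 0.60 with TMM and 1.15 with library totals, which were added after seeing the data.

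Estimates that changed sign were all of uncalled differences, and the cause was not tested. For training in type I fibres, Metrnl was 0.37 with the block, 1.91 with detected genes as a covariate and 0.24 with limma-voom. Angpt1 was 3.50 with the covariate and 1.14 without the 3 libraries. Angptl4 was -2.34 with the block, -0.40 with the covariate, -0.46 without the 3 libraries, -2.24 with limma-voom, -0.14 with log2(FPKM + 1), -1.73 with log2(FPKM + 0.1) and -8.82 to 2.87 leaving out 1 library. Vegfb ranged from -1.34 to 0.52. For training in type IIb fibres, leaving out 1 library gave Vegfa -0.38 to 0.0433, Fndc5 -0.74 to 9.77, Metrnl -7.03 to 2.14 and Angpt1 -4.60 to 6.41. Fndc5 was -0.80 without the 3 libraries and Angpt1 0.70 with limma-voom. Between fibre types, leaving out 1 library gave Vegfb -0.46 to 0.83 in untrained and Vegfa -0.0770 to 0.63 in trained fibres, and Il15 in untrained fibres was 0.71 with limma-voom. With training averaged, Vegfb was 0.12 with library totals, 0.0716 with the covariate, 0.0721 without the 2 libraries of fewest detected genes and 0.11 without the 3 libraries. Ctsb was 0.0358 with library totals, Fndc3b -0.0059 and Stat3 -0.99 with the covariate, Ppargc1a -0.26 with the covariate and -0.12 without the 2 libraries, and Stat3 -1.96 to 1.00 leaving out 1 library. The log2 ratio of Vegfb to Vegfa ranged from -1.24 to 1.13 for training in type I and from -0.93 to 0.47 for untrained fibres. Without the 3 libraries type I untrained fibres keep 1 library, taken to vary as the other groups do. A fit of only the groups compared was not run where all 4 groups enter.

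Uneven counts limit what Il15, Angptl4 and, in type IIb fibres, Fndc5, Metrnl and Angpt1 can show, since 1 library carries most of their counts.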
